A study of Mus musculus with 17 samples.

Results

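Lung expression of 9 monocyte and myeloid inhibitory receptor genes was described across 3 PPARα genotypes of mice given perfluorooctanoic acid (PFOA), a perfluorinated surfactant that is a ligand of the nuclear receptor PPARα, or vehicle. The genes were taken by symbol from the deposited gene table and were Ly6c2, Plac8, F13a1, Vcan, Gas7, Lair1, Pirb, Sirpa and Csf1r. They were 9 of its 31245 genes, and all 9 were among the 26946 genes that had a summed estimated count of at least 20 and were tested. Whole-lung RNA was sequenced from 17 mice, with 2 wild-type (WT) mice on vehicle and 3 mice in each of the other 5 groups. WT mice were purchased Sv/129 animals, KO mice were PPARα null, and KI mice carried human PPARα in place of the mouse receptor. KO and KI mice were bred from pairs of mouse-PPARα-null, human-PPARα-heterozygous parents, so colony and genotype cannot be told apart in comparisons of KO or KI with the purchased WT mice. Mice were 6 weeks old when dosing began and drank sucrose water with 6.2 µg/mL PFOA, or sucrose water alone as vehicle, for 14 weeks. Both sexes were present in WT and KI, whereas all 6 KO mice were female.

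Classical monocytes leave the bone marrow under the control of chemokine receptors, circulate with high surface Ly6C, and enter tissues, where they can turn into macrophages or dendritic cells. Csf1r is the receptor that macrophages and nonclassical monocytes need to survive. Lair1, Pirb and Sirpa are inhibitory receptors: each carries immunoreceptor tyrosine-based inhibitory motifs in its cytoplasmic tail, which recruit the phosphatases encoded by Ptpn6 and Ptpn11 and dampen activation when the receptor meets its ligand. In the lung, monocytes form a pool in the vessels and interstitium and feed the interstitial macrophages. Several of the 9 genes are also expressed by other cells of the lung, such as neutrophils, lymphocytes, fibroblasts and smooth muscle.

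Ly6c2, Plac8, Lair1 and Pirb were the members that passed an adjusted p of 0.2 between KO and WT libraries, so the 250 bases before their transcription starts are shown, 5′ to 3′ on the gene's own strand, which is the minus strand in each case. The sequences and positions are from RefSeq on GRCm38.p6. Capitals mark GAGGAAGT, the core of the binding motif of PU.1, the factor encoded by Spi1 that myeloid cells depend on. Both strands were searched.
Ly6c2 (chr15:75111972-75112221): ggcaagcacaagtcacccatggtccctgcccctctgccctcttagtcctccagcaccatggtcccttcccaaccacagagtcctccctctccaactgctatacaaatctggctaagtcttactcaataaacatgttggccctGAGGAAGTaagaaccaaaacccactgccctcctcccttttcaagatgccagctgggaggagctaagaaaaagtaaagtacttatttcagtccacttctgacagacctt
Plac8 (chr5:100572206-100572455): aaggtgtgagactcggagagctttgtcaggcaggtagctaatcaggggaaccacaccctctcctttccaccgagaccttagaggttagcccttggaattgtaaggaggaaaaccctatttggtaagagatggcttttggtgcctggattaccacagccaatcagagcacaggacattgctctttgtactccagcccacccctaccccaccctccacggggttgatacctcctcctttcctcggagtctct
Lair1 (chr7:4063205-4063454): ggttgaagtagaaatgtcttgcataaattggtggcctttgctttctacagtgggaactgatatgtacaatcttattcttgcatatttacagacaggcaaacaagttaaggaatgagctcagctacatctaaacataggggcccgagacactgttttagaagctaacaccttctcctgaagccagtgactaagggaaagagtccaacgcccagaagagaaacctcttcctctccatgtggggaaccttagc
Pirb (chr7:3720383-3720632): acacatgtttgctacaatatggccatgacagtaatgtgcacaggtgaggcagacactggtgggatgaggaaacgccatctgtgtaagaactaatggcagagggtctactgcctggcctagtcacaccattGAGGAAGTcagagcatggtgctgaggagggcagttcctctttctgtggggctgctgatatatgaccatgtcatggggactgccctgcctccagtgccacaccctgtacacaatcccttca
The motif lay from -108 to -101 bases in Ly6c2 and from -120 to -113 bases in Pirb, counted from the transcription start, and was not in these windows of Plac8 and Lair1. It was in 802 of 32851 RefSeq windows of the same length, a share of 2.44%. TTNNGCAAT, a form of the C/EBP motif, was in 635 of those windows (1.93%) and in 0 of the 6 member windows that were on hand, which also included F13a1 and Vcan. GAGGAAGT was not in the F13a1 and Vcan windows either. Ly6c2, Plac8 and F13a1 had 2 entries each, of which 1 was used. These matches describe letters only.

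Library totals ranged from 4116116 to 9237385 estimated counts, with a median of 7524817. Before TMM normalization, 3 counts corresponded to 0.325 to 0.729 CPM (counts scaled to a common library total). WT vehicle library 122 and KO vehicle library 137 stood apart, with 65.3% and 61.3% of counts on protein-coding genes against 74.4 to 80.4% in the other 15. Ppara was not lower in the libraries labelled KO, at a median of 10.3 CPM on vehicle and 10.1 CPM on PFOA, than in WT libraries, at 6.67 and 5.07 CPM. A count over the whole gene does not separate the disrupted part from the rest, so it does not check this label. Each library is 1 mouse by its label. One i5 index, a barcode of the sequencing adapter, was on every KO PFOA library and on no KO vehicle library, so this index and PFOA cannot be told apart in KO.

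Levels of the 9 genes spanned more than an order of magnitude. Per kilobase of exon, the mean over the 17 libraries was 14.4 CPM for both Csf1r and Sirpa, 6.49 for Gas7, 4.02 for Pirb, 3.87 for Plac8, 3.46 for F13a1, 1.58 for Vcan, 1.56 for Ly6c2 and 0.914 for Lair1. Plac8 varied most between libraries, with an 18.4-fold range, followed by Lair1 at 9.33-fold and Ly6c2 at 6.49-fold. Gas7 varied least, with a 2.05-fold range. The lowest estimated counts behind a value were 5 for Plac8, 9 for Lair1 and 10.6 for Ly6c2, and those of Gas7, Sirpa and Csf1r were never under 140. The plot of levels by library shows all 9 genes.

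**Figure D1:**
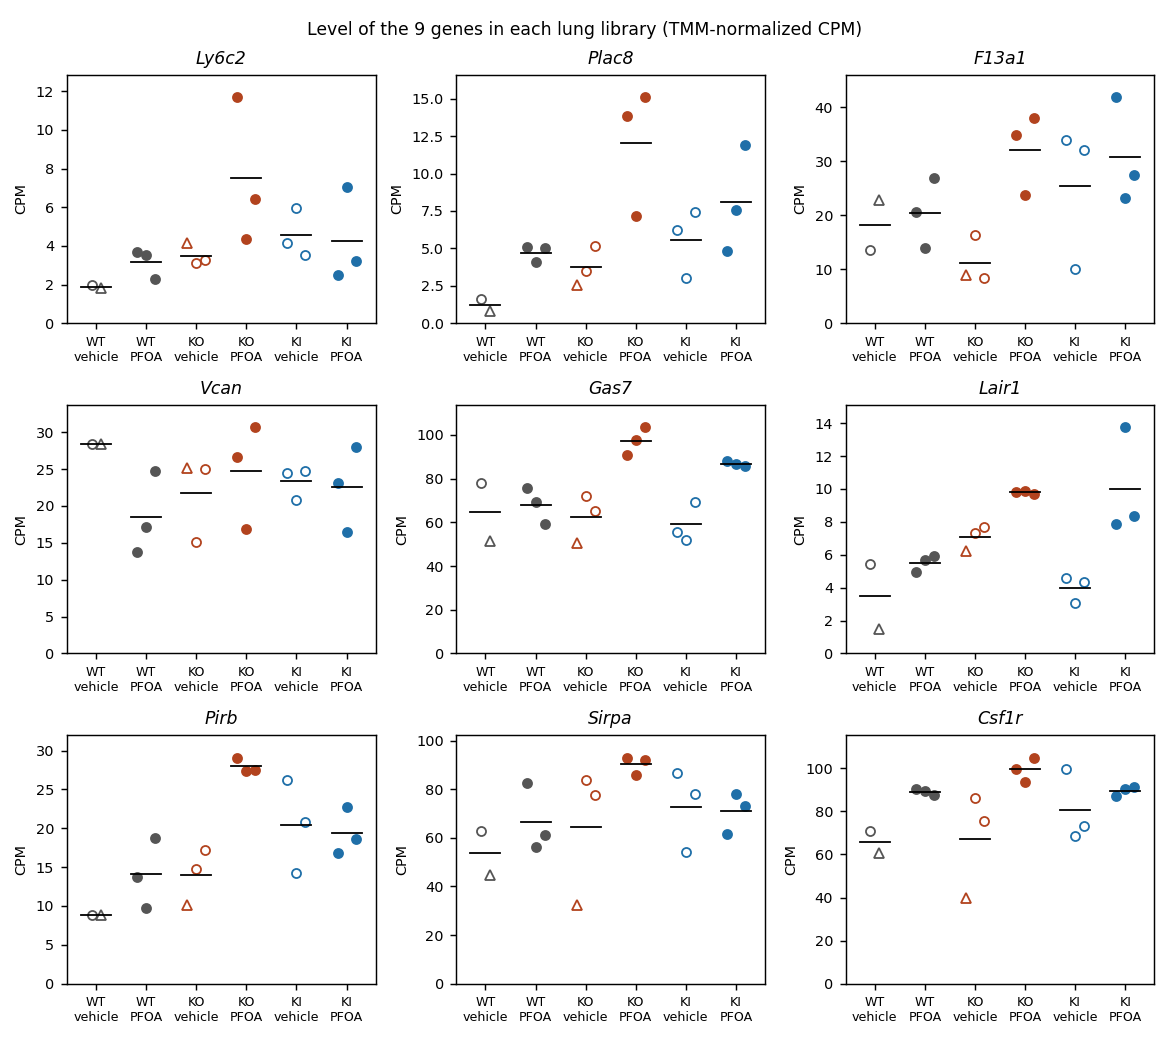
TMM-normalized CPM (y axis) of each of the 9 genes in the 17 lung libraries, by genotype and exposure (x axis). Open symbols are vehicle, filled circles PFOA, triangles the 2 libraries with a low protein-coding share (WT vehicle 122 and KO vehicle 137), and horizontal lines group means. In KO, PFOA libraries lay above all vehicle libraries for 8 of the 9 genes, with Vcan as the exception; 6.82% of all genes did so.

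Plac8 encodes a small cysteine-rich protein of classical monocytes, neutrophils and some lymphocytes (ENSMUSG00000029322, mm10 chromosome 5, 100553725 to 100572245, minus strand). In WT, Plac8 was at 1.60 and 0.819 CPM on vehicle and at 5.07, 4.09 and 5.01 CPM on PFOA. In KO, the vehicle libraries held 2.53, 3.52 and 5.15 CPM and the PFOA libraries 13.8, 7.13 and 15.1 CPM. In KI, the values were 6.21, 3.05 and 7.45 CPM on vehicle and 4.80, 7.58 and 11.9 CPM on PFOA. PFOA libraries lay above vehicle libraries without overlap in WT and KO, and the groups overlapped in KI. The log2 fold change of PFOA over vehicle was 1.92 ± 0.53 (SE) in WT, 1.64 ± 0.39 in KO and 0.54 ± 0.38 in KI. In edgeR's quasi-likelihood F-test, with p-values adjusted over 26946 genes by Benjamini and Hochberg's method, the adjusted p was 0.462 in WT, 0.434 in KO and 1.0 in KI, so no genotype passed the threshold of an adjusted p under 0.2 with a fold over 2. Over the 3 genotypes, the log2 fold change was 1.25 ± 0.27 with an adjusted p of 0.317. Plac8 passed the same threshold by DESeq2 in KO (adjusted p = 0.157, range over alternatives 0.129 to 1.0) and over the 3 genotypes (0.0220). In WT it passed with all 17 libraries by DESeq2 with its default filters (1.95, adjusted p = 0.163) and not by DESeq2 on the same genes (0.268). Without WT vehicle library 107, which leaves library 122 with its low protein-coding share as the one WT vehicle library, it passed by edgeR (2.51, adjusted p = 0.118). Over all alternatives the WT adjusted p ranged from 0.118 to 1.0. Over the 3 genotypes the edgeR call appeared without KI vehicle 102 (adjusted p = 0.160), KI vehicle 135 (0.192), KI PFOA 57 (0.116) or KI PFOA 139 (0.173), and the range over alternatives was 0.0134 to 0.629. In whole lung, more cells of a type and more RNA per cell cannot be told apart, here and for every gene that follows. The study had itself picked Plac8 in WT, and named Lair1 and Gas7, on these libraries, so their direction here is not independent evidence. For Gas7 its discussion gives both a downward trend with PFOA and a stronger induction where PPARα was absent.

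Ly6c2 encodes one of the Ly6C surface proteins that mark classical monocytes (ENSMUSG00000022584, mm10 chromosome 15, 75108158 to 75111970, minus strand). Its levels were 1.998 and 1.802 CPM in WT on vehicle and 3.67, 3.51 and 2.31 CPM in WT on PFOA. KO libraries held 4.15, 3.10 and 3.26 CPM on vehicle and 11.7, 4.37 and 6.43 CPM on PFOA. KI libraries held 4.14, 5.98 and 3.51 CPM on vehicle and 2.51, 7.07 and 3.21 CPM on PFOA. The groups did not overlap in WT or KO, although the highest KO vehicle library and the lowest KO PFOA library were close, and they overlapped in KI. The log2 fold change was 1.11 ± 0.40 in KO (edgeR adjusted p = 0.477), 0.73 ± 0.50 in WT (0.773) and -0.10 ± 0.40 in KI (1.0). Ly6c2 shares much of its sequence with Ly6c1, which endothelial cells and lymphocytes also express. Ly6c2 held 4.89% of the summed counts of the pair and had fractional counts in all 17 libraries, so its level depends on how shared reads were split. Summed over both genes, the log2 fold change was 0.68 in WT, 0.58 in KO, 0.54 in KI and 0.59 over the 3 genotypes, the last with an edgeR adjusted p of 0.453.

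F13a1 encodes the A subunit of coagulation factor XIII, a transglutaminase that cross-links fibrin and is made by monocytes and resident macrophages (ENSMUSG00000039109, mm10 chromosome 13, 36867178 to 37050244, minus strand). In KO, F13a1 was at 8.98, 16.3 and 8.41 CPM on vehicle and at 34.8, 23.7 and 38.0 CPM on PFOA. In WT, it was at 13.6 and 22.9 CPM on vehicle and at 20.5, 14.0 and 27.0 CPM on PFOA. In KI, vehicle libraries held 33.9, 10.1 and 32.2 CPM and PFOA libraries 41.9, 23.1 and 27.4 CPM. Only in KO were the groups apart, and KI vehicle library 116 lay far under the other 2 of its group. The log2 fold change was 1.50 ± 0.39 in KO (edgeR adjusted p = 0.434), 0.18 ± 0.43 in WT (0.948) and 0.29 ± 0.37 in KI (1.0). By DESeq2, F13a1 passed the threshold in KO with an adjusted p of 0.157, and its adjusted p ranged from 0.129 to 1.0 over the alternatives. The difference of the PFOA effect between KO and WT was 1.32 ± 0.58 on the log2 scale (95% interval 0.20 to 2.45, edgeR adjusted p = 0.669), and that between KI and KO was -1.21 ± 0.54 (interval -2.27 to -0.16, edgeR adjusted p = 0.909).

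Vcan encodes versican, a chondroitin sulfate proteoglycan of the matrix that classical monocytes express, as do fibroblasts and smooth muscle (ENSMUSG00000021614, mm10 chromosome 13, 89655312 to 89742509, minus strand). It was the one member below 0 over the 3 genotypes, at a log2 fold change of -0.13 ± 0.16. WT vehicle libraries held 28.4 and 28.3 CPM, above all 3 WT PFOA libraries at 13.8, 17.1 and 24.7 CPM. KO values overlapped, at 15.1 to 25.1 CPM on vehicle and 16.8 to 30.7 CPM on PFOA, and so did KI values, at 20.7 to 24.7 and 16.4 to 27.9 CPM. PFOA over vehicle gave a log2 fold change of -0.61 ± 0.28 in WT (edgeR adjusted p = 0.667), 0.18 ± 0.26 in KO (0.813) and -0.05 ± 0.26 in KI (1.0). Smooth muscle markers were lower with PFOA at an unadjusted p under 0.05 for 4 of 6 genes in WT, against 4.23% of all genes. Their part in the Vcan values was not tested.

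Gas7, growth arrest specific 7, encodes a protein that binds membranes and actin and shapes the cell cortex (ENSMUSG00000033066). Its GENCODE M21 model on mm10 chromosome 11 runs from 67455437 to 67688990 on the plus strand. The model overlaps Gm12301 and Glp2r, each on the other strand. KO libraries held 50.4, 72.2 and 65.3 CPM on vehicle and 90.6, 97.5 and 103 CPM on PFOA. KI libraries held 55.7, 51.9 and 69.5 CPM on vehicle and 87.9, 86.9 and 85.9 CPM on PFOA. WT libraries held 77.9 and 51.6 CPM on vehicle and 75.7, 69.3 and 59.2 CPM on PFOA. Every KO and KI PFOA library was above every vehicle library of the series, whereas the WT groups overlapped. On PFOA, Gas7 averaged 86.9 ± 0.983 CPM (SD, n = 3) in KI and 97.2 ± 6.43 CPM in KO. Unadjusted p-values in the edgeR fit were 0.00145 in KO and 0.00373 in KI, and the adjusted p was 0.453 and 1.0. The PFOA effect in KO exceeded that in WT by 0.56 ± 0.25 on the log2 scale (95% interval 0.07 to 1.05, edgeR adjusted p = 0.669), and KI and KO differed by -0.07 ± 0.24 (interval -0.54 to 0.39).

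Lair1 encodes leukocyte-associated immunoglobulin-like receptor 1, an inhibitory receptor for collagens and the complement protein C1q (ENSMUSG00000055541, mm10 chromosome 7, 4003402 to 4063204, minus strand). In KI, Lair1 was at 4.62, 3.05 and 4.36 CPM on vehicle and at 7.88, 13.7 and 8.38 CPM on PFOA. In KO, it was at 6.22, 7.32 and 7.66 CPM on vehicle and at 9.83, 9.90 and 9.72 CPM on PFOA. In WT, vehicle libraries held 5.46 and 1.47 CPM and PFOA libraries 4.94, 5.70 and 5.91 CPM. Groups were apart in KI and KO, and overlapped in WT through vehicle library 107. As a log2 fold change, this was 1.32 ± 0.33 in KI (edgeR adjusted p = 1.0), 0.47 ± 0.31 in KO (adjusted p = 0.611) and 0.63 ± 0.38 in WT (adjusted p = 0.740). In KI it was the largest change of the 9 genes, and the DESeq2 adjusted p was 0.640, within a range of 0.571 to 1.0 over the alternatives. The WT value rested on 1 mouse. Without vehicle library 107 it was 1.89, and without vehicle library 122 it was 0.020. Between WT females, which were 1 mouse on vehicle (107) and 1 on PFOA (50), it was -0.14. Leaving out 1 of the WT vehicle libraries leaves a single one, which is then taken to vary like the other groups.

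Pirb encodes paired immunoglobulin-like receptor B, an inhibitory receptor for MHC class I molecules and for the neurite inhibitor encoded by Rtn4 (ENSMUSG00000058818, mm10 chromosome 7, 3711409 to 3720391, minus strand). KO libraries held 10.1, 14.8 and 17.2 CPM on vehicle and 29.1, 27.4 and 27.5 CPM on PFOA. WT libraries held 8.79 and 8.84 CPM on vehicle and 13.7, 9.79 and 18.8 CPM on PFOA. KI libraries held 26.3, 14.3 and 20.8 CPM on vehicle and 16.8, 22.7 and 18.6 CPM on PFOA. KO PFOA libraries were the highest of the series, WT PFOA libraries were above both WT vehicle libraries, and the KI groups overlapped. On the log2 scale PFOA and vehicle differed by 0.98 ± 0.25 in KO (edgeR adjusted p = 0.434), 0.68 ± 0.29 in WT (0.623) and -0.07 ± 0.24 in KI (1.0). The largest difference of PFOA effects among the 9 genes, relative to its error, was that of Pirb between KI and KO, at -1.05 ± 0.34 (95% interval -1.73 to -0.38, edgeR adjusted p = 0.909). Pirb shares sequence with the activating receptor gene Pira2 and had fractional counts in all 17 libraries. It held 89.8% of the summed counts of this pair. Pira1, Pira4, Pira6, Pira7, Pira11, Pira12 and Pira13 were not in the gene table, so the sum does not cover them. Summed over both genes, the KO log2 fold change was 0.97 and the KI one 0.011.

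Sirpa encodes signal regulatory protein α, the inhibitory receptor for the "do not eat me" signal CD47 (ENSMUSG00000037902, mm10 chromosome 2, 129592835 to 129632228, plus strand). Its KO vehicle libraries held 32.2, 83.7 and 77.6 CPM and its KO PFOA libraries 93.0, 85.7 and 91.8 CPM. WT libraries spanned 44.5 to 62.9 CPM on vehicle and 56.3 to 82.7 CPM on PFOA, and KI libraries 54.1 to 86.6 and 61.7 to 78.1 CPM. Groups were apart only in KO, where vehicle library 137 lay far under the other 2. PFOA over vehicle gave a log2 fold change of 0.47 ± 0.26 in KO (edgeR adjusted p = 0.549) and 0.16 without library 137. It was 0.31 ± 0.29 in WT and -0.04 ± 0.26 in KI. Sirpa had fractional counts in 4 of 17 libraries. It held 89.1% of the counts summed with its near paralogs Sirpb1a, Sirpb1b and Sirpb1c. For that sum, the log2 fold change was 0.56 in KO, 0.33 in WT and 0.00074 in KI.

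Csf1r encodes the receptor tyrosine kinase for Csf1 and Il34 (ENSMUSG00000024621, mm10 chromosome 18, 61100598 to 61132149, plus strand). WT libraries held 70.9 and 60.8 CPM on vehicle and 90.3, 89.6 and 87.4 CPM on PFOA. KO libraries held 39.8, 86.4 and 75.6 CPM on vehicle and 99.8, 93.6 and 105 CPM on PFOA. KI libraries held 99.6, 68.5 and 73.2 CPM on vehicle and 87.1, 90.6 and 91.1 CPM on PFOA. Csf1r on PFOA lay in a narrow band from 87.1 to 105 CPM in all 9 libraries, above the vehicle libraries in WT and KO, and only KI vehicle library 102 reached that band without PFOA. The log2 fold change was 0.55 ± 0.20 in KO (edgeR adjusted p = 0.477), 0.44 ± 0.23 in WT (0.700) and 0.16 ± 0.20 in KI (1.0). Without KO vehicle library 137 the KO value was 0.29. Csf1r overlaps Mir6983 and, on the other strand, Hmgxb3, and the use of strand in counting is not given in the sources used here.

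Ordered by group mean, KO on PFOA came highest for 7 of the 9 genes, KI on PFOA for Lair1, and WT on vehicle for Vcan. WT on vehicle came lowest for 6 genes (Ly6c2, Plac8, Lair1, Pirb, Sirpa and Csf1r), KO on vehicle for F13a1, KI on vehicle for Gas7 and WT on PFOA for Vcan. Neighbouring groups in this order mostly overlapped, and for F13a1, Vcan and Sirpa all of them did. For Gas7, Pirb and Csf1r the KO PFOA libraries lay above those of the next group, and for Ly6c2, Plac8 and Pirb the WT vehicle libraries lay under those of the next. Lair1 had 3 such steps, between KI on vehicle and WT on PFOA, between WT on PFOA and KO on vehicle, and between KO on vehicle and KO on PFOA. Gas7 had a further step between WT on PFOA and KI on PFOA. No share over all genes was computed for this order or these steps, so they only describe the 9 genes.

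Counted over the 9 genes, higher values with PFOA were most frequent in KO. In KO, 9 of 9 fold changes were above 0 against 46.9% of all genes, with a median log2 fold change of 0.63 against -0.033. PFOA libraries lay above vehicle libraries without overlap for 8 of 9 genes in KO, against 6.82% of all genes. At an unadjusted p under 0.05, 6 of 9 were higher (Ly6c2, Plac8, Gas7, F13a1, Pirb and Csf1r), against 3.74% of all genes. In WT, 8 of 9 fold changes were above 0 against 53.3% of all genes, with a median of 0.44 against 0.036. Non-overlapping WT libraries were higher for 4 genes against 11.6% and lower for 1, Vcan, against 10.9%. Plac8 and Pirb were higher (3.12% of all genes) and Vcan lower (4.23%) at an unadjusted p under 0.05 in WT. In KI, 5 of 9 fold changes were above 0 against 50.8%, with a median of 0.16 against 0.0052. Only Lair1 and Gas7 did not overlap in KI (4.45% of all genes were higher without overlap), and the same pair had an unadjusted p under 0.05 (1.47%). The genes were chosen with results of these libraries known, so these counts describe them and are no test.

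No member passed the edgeR threshold for PFOA in any genotype or over the 3 genotypes, and neither did any other gene (0% called in each). Over all genes, edgeR gave 1981 genes at an unadjusted p under 0.05 in WT (7.35%), 2639 in KO (9.79%), 699 in KI (2.59%) and 2228 over the 3 genotypes (8.27%). DESeq2 on the same genes called 24 (0.0891%), 68 (0.252%), 1 (0.00371%) and 26 (0.0965%). Among the members, DESeq2 called Plac8 and F13a1 in KO, and Plac8 over the 3 genotypes. Over the 3 genotypes 7 of 9 members were higher at an unadjusted p under 0.05, against 3.80% of all genes, and 8 of 9 were above 0, against 48.2%, with a median of 0.51 against -0.012, although libraries overlapped for all 9. Between WT mice on vehicle and on PFOA, an exact permutation test cannot go under a p of 0.1 with 2 and 3 mice. The plot of PFOA effects sets the genotypes side by side.

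**Figure D2:**
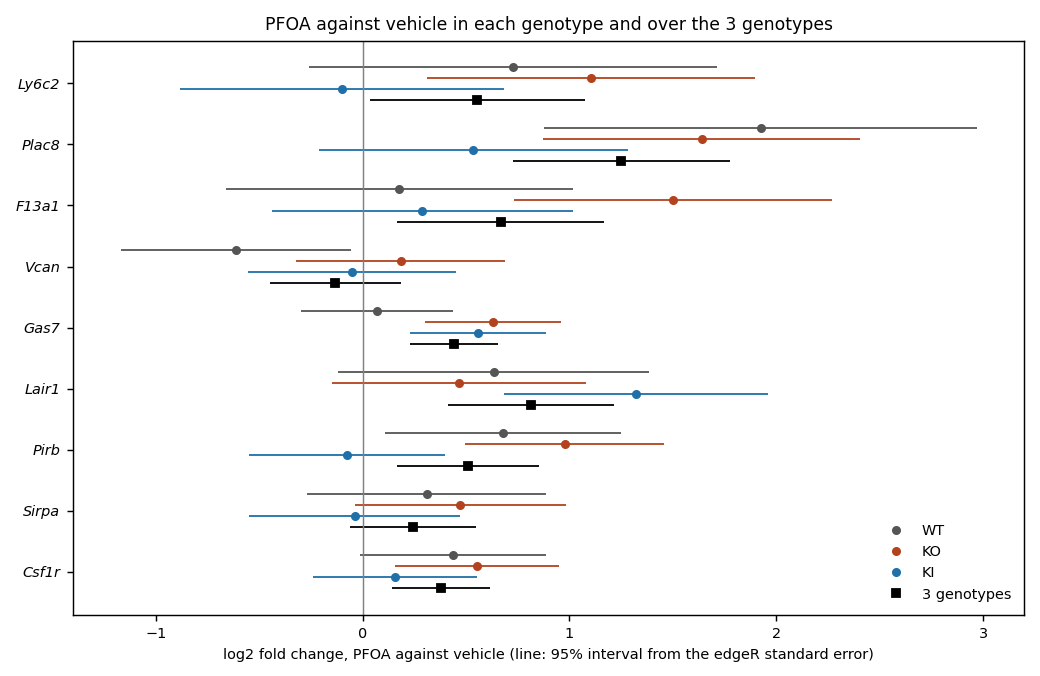
log2 fold change of PFOA over vehicle (x axis) for each of the 9 genes (y axis) in WT, KO and KI (circles) and over the 3 genotypes (black squares), with 95% intervals from the edgeR standard error. In KO, 6 of the 9 intervals lay above 0, and in KI those of Lair1 and Gas7 did.

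The test of the difference between genotypes passed the threshold for no member. In the edgeR fit, 0 of 26946 genes were called for any of the 3 differences, and 2010, 1235 and 1460 genes had an unadjusted p under 0.05 for KO minus WT, KI minus WT and KI minus KO; DESeq2 on the same genes called 3, 1 and 3, none of them a member. For KI minus KO, 8 of 9 members were below 0, with a median of -0.51 on the log2 scale. In that comparison 52.4% of all genes were above 0, with a median of 0.029. Ly6c2 (-1.21 ± 0.57), F13a1 and Pirb had an unadjusted p under 0.05 there, against 1.92% of all genes in that direction. For KI minus WT, Plac8 alone did, at -1.39 ± 0.66 (95% interval -2.68 to -0.10, edgeR adjusted p = 0.999), where 2.39% of all genes were lower at that level. For KO minus WT, Gas7 and F13a1 did, where 2.56% were higher. Both differences involving KI share its 6 libraries.

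Single libraries moved several of these values. Leaving out each of the 17 libraries in turn kept the sign of the PFOA effect for 8 of 9 genes in KO, with Vcan as the exception, for 7 of 9 in WT, without Gas7 and F13a1, and for 4 of 9 in KI, which were Plac8, Gas7, Lair1 and Csf1r. Over the 3 genotypes the sign held for all 9. The plot of left-out libraries shows the ranges.

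**Figure D3:**
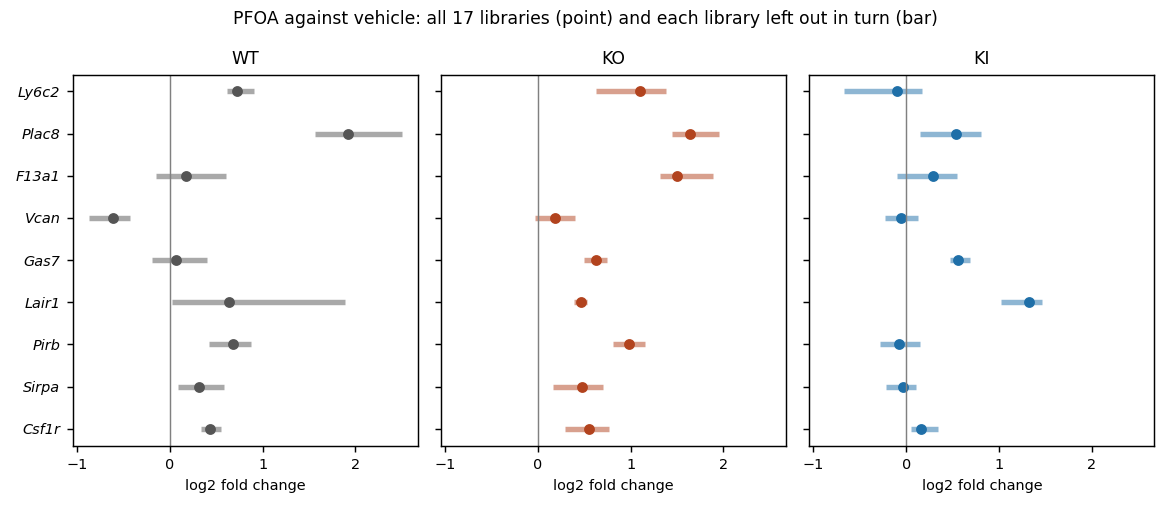
log2 fold change of PFOA over vehicle (x axis) for the 9 genes (y axis) in WT, KO and KI (panels). Points are the values from all 17 libraries and bars span the values with each library left out in turn; the widest bar is that of Lair1 in WT, from 0.020 to 1.89.

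Between genotypes, Ly6c2, Plac8, Lair1 and Pirb were higher in KO than in WT lungs over both exposures, and Plac8 and Pirb were higher in KI than in WT. Plac8 averaged 7.88 CPM in KO and 6.83 CPM in KI against 3.32 CPM in WT, which gave log2 fold changes of 1.35 ± 0.33 (edgeR adjusted p = 0.0378) and 1.30 ± 0.34 (0.0750). Ly6c2 averaged 5.50 CPM in KO against 2.66 CPM in WT, a log2 fold change of 1.06 ± 0.33 (edgeR adjusted p = 0.118). Plac8 and Ly6c2 were thus the members called in KO, where 2.36% of all genes were called and 1.74% were called higher, and Plac8 was the member called in KI, where 1.37% were called and 0.935% were called higher. Pirb averaged 21.01 CPM in KO, 19.9 CPM in KI and 11.98 CPM in WT, with log2 fold changes of 0.84 ± 0.22 (edgeR adjusted p = 0.0502) and 0.83 ± 0.22 (0.0837), which fell short of a 2-fold change. Lair1 in KO also stayed under 2-fold, at 1.91-fold and an edgeR adjusted p of 0.0666, although all 6 KO libraries lay above all 5 WT libraries, as they did for 1.20% of all genes. At any fold, 4 members in KO and 2 in KI had an adjusted p under 0.2 and were higher, against 3.15% and 1.69% of all genes.

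The remaining members did not pass the threshold between genotypes. Gas7, F13a1, Vcan, Sirpa and Csf1r had log2 differences of 0.05 to 0.35 between KO and WT, with edgeR adjusted p-values from 0.427 to 0.959, and of 0.03 to 0.58 between KI and WT, with adjusted p-values from 0.621 to 0.994. All 9 members were above 0 in both comparisons, where 53.0% and 51.0% of all genes were. KI and KO differed by -0.36 (Lair1) to 0.48 (F13a1), and no member was called there, where 0.00742% of all genes were. For Pirb the KI to KO difference was -0.01 with a 95% interval of -0.41 to 0.39, and for Plac8 it was -0.05 with an interval of -0.64 to 0.55.

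The genotype comparisons were repeated with sex or the adapter index taken into account. All KO libraries came from females and 3 of the 5 WT libraries from males. With sex as a covariate, the KO to WT log2 fold change of Plac8 was 1.20 (edgeR adjusted p = 0.209), that of Ly6c2 was 0.83 (0.450), that of Lair1 was 0.76 (0.312) and that of Pirb was 0.94 (0.114). Between females alone, with 2 WT and 6 KO libraries, they were 1.25, 0.94, 0.66 and 0.89, with edgeR adjusted p-values of 0.383, 0.601, 0.627 and 0.197. When the i5 index was the covariate instead, they were 0.67, 0.76, 0.98 and 0.64, with adjusted p-values of 0.592, 0.481, 0.278 and 0.448. Each of these 12 values was above 0, and neither Plac8 nor Ly6c2 kept its KO call under any of the 3 settings, the female one having fewer libraries. With the protein-coding share as a covariate, Lair1 gained a KO call (1.02, edgeR adjusted p = 0.0197) and Plac8 (1.44, 0.0132) and Ly6c2 (1.09, 0.0790) kept theirs. In KI, Plac8 kept its call with sex as a covariate (1.22, edgeR adjusted p = 0.140) and not with the i5 index (0.87, 0.402) or between females (1.27, 0.563). Over all alternatives the edgeR or DESeq2 adjusted p of Plac8 ranged from 0.00741 to 0.592 in KO and from 0.0121 to 0.563 in KI.

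Single libraries decided the Ly6c2 call in KO. The edgeR adjusted p was 0.206 without WT vehicle 107, 0.222 without WT vehicle 122, 0.234 without WT PFOA 65 and 0.314 without KO PFOA 52, and the range over alternatives was 0.0597 to 0.986. Summed with Ly6c1, the KO to WT difference was -0.017 with an adjusted p of 0.986. The Plac8 call in KO held with each library left out. Lair1 in KO passed 2-fold without WT vehicle 107 (log2 fold change 1.23, edgeR adjusted p = 0.0158, range over alternatives 0.0158 to 0.627), Pirb in KO did so without WT PFOA 65 (1.003, adjusted p = 0.0292, range 0.0107 to 0.448), and Ly6c2 in KI did so without KI PFOA 57 (1.03, adjusted p = 0.166, range 0.166 to 0.942). Summed with Pira2, Pirb had log2 differences of 0.96 in KO and 0.996 in KI. Pira2 itself was at 0 in both WT vehicle libraries.

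**Figure D4:**
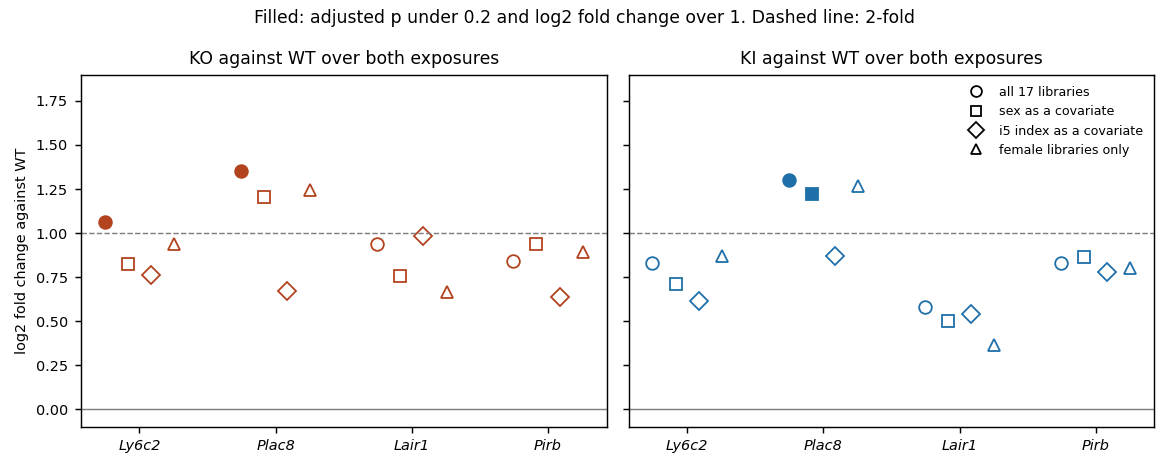
log2 fold change against WT (y axis) of Ly6c2, Plac8, Lair1 and Pirb (x axis) in KO (left) and KI (right), from all 17 libraries, with sex or i5 index as a covariate, and between females. Filled symbols passed an adjusted p of 0.2 and 2-fold (dashed line); in KO both filled symbols are from the fit of all 17 libraries without a covariate.

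Across the 17 libraries the 9 genes tended to vary together, with a Pearson r of log2 levels above 0 in 31 of 36 pairs and a median r of 0.521. For deviations from group means, 25 of 36 pairs were above 0 and the median was 0.322. Sirpa and Csf1r were the closest pair, at 0.867 over all libraries and 0.899 for deviations from group means. Plac8 and Pirb followed closely at 0.862, but only 0.543 within groups, and Vcan and Csf1r were the least alike at -0.207. All pairs share libraries, depth and composition, so these are descriptions. The genes most like each member, drawn from 19192 genes that averaged 1 CPM or more, were ranked by Pearson r over the 17 libraries. Spearman's rho is given after each r. For Plac8 these were Gzma, a granzyme of NK and T cells (0.945 and 0.929), Ms4a6b (0.937 and 0.966) and Arhgap15 (0.927 and 0.929). For Pirb they were Arhgap15 (0.941 and 0.931), Gzma (0.936 and 0.922) and the integrin gene Itga4 (0.932 and 0.924), so that 2 of the 3 were shared with Plac8. Sirpa was nearest to Cybb, the phagocyte oxidase subunit (0.955 and 0.892), Ets1 (0.948 and 0.922) and Laptm5 (0.937 and 0.875). Csf1r was nearest to Rassf5 (0.942 and 0.882), Ly6e (0.928 and 0.836) and Plek (0.926 and 0.880). The other members had lower likeness to any gene. For Lair1 the nearest were Rtp4 (0.858 and 0.784), Rab32 (0.838 and 0.716) and Gm13477 (0.833 and 0.708), and for Gas7 they were Stk26 (0.862 and 0.858), Arpc1b (0.861 and 0.900) and Serpinb1a (0.850 and 0.799). F13a1 had AB124611 (0.865 and 0.828), Rasa3 (0.842 and 0.755) and Klhl36 (0.834 and 0.750), and Ly6c2 had Slfn4 (0.824 and 0.740), Gm48889 (0.798 and 0.748) and Ccdc86 (0.792 and 0.792). Vcan was nearest to Arl6 (0.809 and 0.787), Slc9a3r1 (0.806 and 0.718) and Dnaaf1 (0.794 and 0.674), of which Arl6 and Dnaaf1 are genes of cilia. Ranked by Spearman's rho instead, Ccdc86, Ms4a6b, Arpc1b and Ets1 stayed among the 3 nearest genes of Ly6c2, Plac8, Gas7 and Sirpa, and all the others were replaced.

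The other monocyte lists had their highest median PFOA effect in KO and their lowest in KI. Among 10 other classical monocyte genes, 3 in KO, 2 in WT and 0 in KI were higher at an unadjusted p under 0.05. The median log2 fold changes of this list were 0.67, 0.21 and 0.07, and 1 gene was lower in WT. Of all genes, 3.74%, 3.12% and 1.47% were higher at that level, and 4.23% in WT and 1.12% in KI were lower. These shares also stand beside the list counts that follow. Of 10 nonclassical monocyte genes, 4, 1 and 0 were higher and 1 was lower in KI, with medians of 0.86, 0.60 and 0.02. The integrin gene Itgal was among those higher in KO, at 1.22 ± 0.29 (edgeR adjusted p = 0.434). Of 6 monocyte transcription factor genes, 3 in KO and 1 in WT were higher and 1 each in WT and KI lower, and in WT the lower one was Runx1 at -0.36 ± 0.15 (edgeR adjusted p = 0.621). None of these genes was called for PFOA. KO vehicle library 137 held 653 CPM of the other classical and 505 CPM of the nonclassical genes, summed. In the other KO vehicle libraries these sums were 2534 and 2694 CPM, and 1102 and 886 CPM. KO PFOA libraries held 2833 to 3009 and 1072 to 1321 CPM. The part of library 137 in the KO list effects was not tested.

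Of 10 other myeloid inhibitory receptor genes, 4 in KO, 1 in WT and 0 in KI were higher at an unadjusted p under 0.05. In KO these were Cd300a (1.41 ± 0.39), Clec4a2 (1.33 ± 0.53), Pilra (0.98 ± 0.42) and Lilrb4a (0.57 ± 0.20), with edgeR adjusted p-values from 0.458 to 0.493, and in WT it was Cd33 (0.58 ± 0.27, 0.676). Of 6 phosphatase and adaptor genes, which include the activating adaptors Tyrobp and Fcer1g, 5 were higher in KO and 0 in WT and KI. The 5 included Ptpn6, the SHP-1 phosphatase, at 1.10 ± 0.28, and Tyrobp, the activating adaptor DAP12, at 1.45 ± 0.36, each with an edgeR adjusted p of 0.434. The 6 genes summed to 224 CPM in KO vehicle library 137 and to 344 and 340 CPM in the other KO vehicle libraries. KO PFOA libraries held 379 to 423 CPM. Between genotypes, Fcgr2b, the inhibitory Fc receptor, was called in both KO (1.19 ± 0.18, edgeR adjusted p = 0.000675) and KI (1.09 ± 0.18, 0.00207). It averaged 21.6 CPM in KO, 20.2 CPM in KI and 9.58 CPM in WT. Fcer1g, the Fc receptor γ chain that carries an activating motif, was called in KO at 1.12 ± 0.35 (edgeR adjusted p = 0.118). These genotype differences, and those of list genes that follow, are from the fit without sex or the i5 index as a covariate. All KO mice were female, and the part of sex or index in these differences was not tested.

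Ligands of the member receptors had median log2 fold changes of 0.37 in KO, 0.23 in KI and 0.07 in WT. Their summed level was 1573 CPM in KO vehicle library 137 and 3049 and 3019 CPM in the other KO vehicle libraries. KO PFOA libraries held 3098 to 3500 CPM, and the part of library 137 in the KO ligand effects was not tested. Of 11 ligand genes, 2 in KO, 0 in WT and 1 in KI were higher with PFOA at an unadjusted p under 0.05. Those in KO were C1qa, a ligand of Lair1, at 0.60 ± 0.28, and H2-K1, a class I ligand of Pirb, at 0.41 ± 0.18. The one in KI was the collagen gene Col1a1, whose product binds Lair1, at 0.55 ± 0.17 (edgeR adjusted p = 1.0). Cd47, the ligand of Sirpa, had log2 fold changes of 0.37 in KO, 0.35 in WT and 0.16 in KI, and Csf1, a ligand of Csf1r, had 0.04, -0.12 and 0.11. Between genotypes, H2-K1 rose by 0.56 ± 0.13 in KO (edgeR adjusted p = 0.0208) and 0.64 ± 0.13 in KI (0.0120), both under 2-fold.

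Markers of other cells moved along with the members, and their part in the values of the 9 genes was not tested. Of 10 NK and T cell genes, 5 in WT and 6 in KO were higher with PFOA at an unadjusted p under 0.05 and 0 in KI, with medians of 1.22, 0.98 and 0.15. Their summed level was 11.6 to 18.4 CPM in WT vehicle, 32.6 to 37.1 CPM in WT PFOA, 29.4 to 37.2 CPM in KO vehicle, 50.1 to 76.1 CPM in KO PFOA, 30.04 to 49.98 CPM in KI vehicle and 34.3 to 56.5 CPM in KI PFOA libraries. Ncr1 and Gzmb were at 0 in at least 1 library. In KO and KI, 4 of these 10 genes were called higher than in WT, against 1.74% and 0.935% of all genes, among them Gzma at 1.70 ± 0.29 (edgeR adjusted p = 0.00205) and 1.65 ± 0.29 (0.00403). Of 8 neutrophil genes, 5 in KO, 1 in WT and 1 in KI were higher with PFOA. Their sums ranged from 52.7 to 98.1 CPM in KO PFOA against 19.0 to 68.6 CPM in KO vehicle, from 14.9 to 56.3 CPM in WT PFOA against 20.5 to 37.5 CPM in WT vehicle, and from 43.7 to 54.5 CPM in KI PFOA against 20.5 to 129 CPM in KI vehicle. Ngp was at 0 in both WT vehicle libraries. The 9 members themselves summed to 366 to 428 CPM in KO PFOA and 180 to 302 CPM in KO vehicle, to 269 to 310 against 221 to 271 CPM in WT, and to 334 to 347 against 232 to 342 CPM in KI.

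Airway epithelial genes went the other way in WT. Of 8 such genes, 7 were lower with PFOA in WT at an unadjusted p under 0.05, against 4.23% of all genes. In KO and KI, 0 of these 8 genes were lower at that level. Their summed level was 11697 and 25356 CPM in the WT vehicle libraries against 6899.7 to 9026 CPM in WT on PFOA and 4848 to 11455 CPM in the other 12 libraries, so both WT vehicle libraries were above all others. Of 8 B and plasma cell genes, 1 in WT and 2 in KO were higher with PFOA at that level, with medians of 1.20, 1.04 and, in KI, -0.94. The 6 near paralogs of members had medians of 0.69, 1.04 and 0.55 in WT, KO and KI, smooth muscle genes -0.72, 0.15 and -0.14, and red blood cell genes 0.34, 0.61 and -0.38. Macrophage, dendritic, endothelial and fibroblast lists had medians between -0.12 and 0.56 in all 3 genotypes. The plot of gene lists gives all medians.

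**Figure D5:**
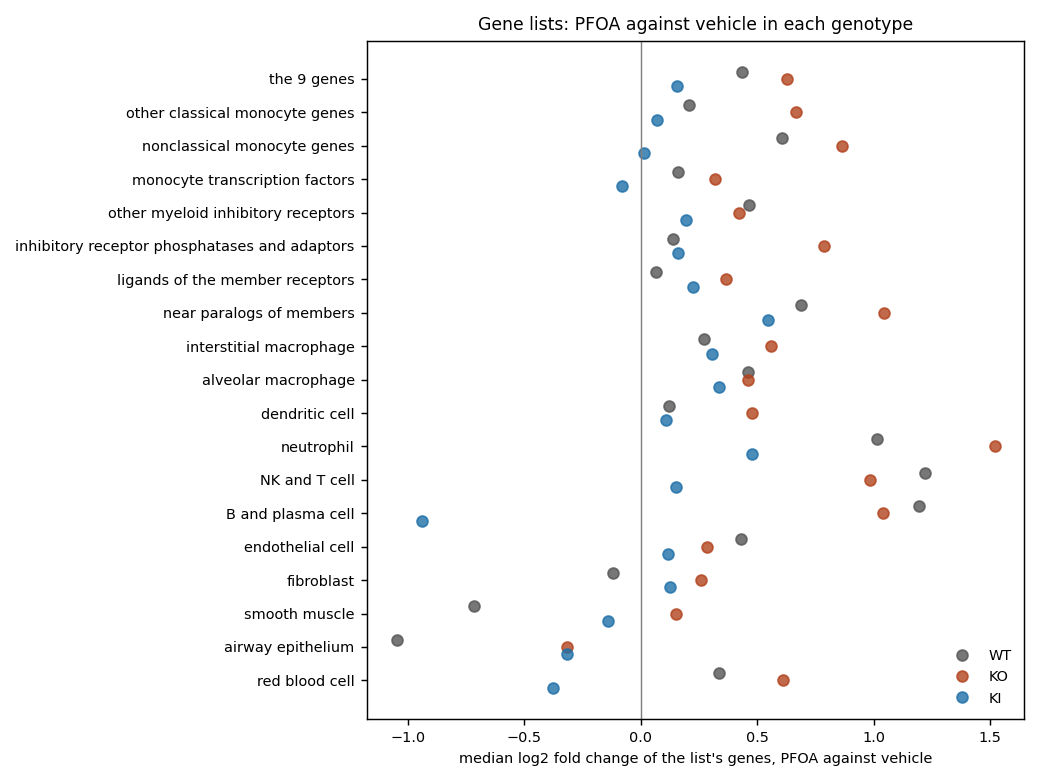
Median log2 fold change of PFOA over vehicle (x axis) for the 9 genes and 18 other gene lists (y axis) in WT, KO and KI (points, moved vertically so that they do not overlap). The 9 genes had medians of 0.44, 0.63 and 0.16; medians have no error bar because the genes of a list are not replicates.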

How the data were processed

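Whole-lung total RNA of 17 mice was sequenced with the SMARTer Stranded Total RNA-Seq v2 Pico kit. The authors aligned reads to mm10 with STAR and quantified genes in Partek Flow by expectation maximization; the submitters' processing notes name STAR 2.6, Partek and DESeq2 3.5. The deposited values are each an estimated count per gene, made by the authors with that software and not normalized, of which 29.9% were not whole; the gene annotation and the use of strand in counting are not given in the sources used here. Estimated counts of genes that share reads depend on how those reads were split.

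Counts were rounded to whole numbers. The 26946 of 31245 genes with a summed count of at least 20 were tested with edgeR 4.0.16 (R 4.3.3) by TMM normalization and its quasi-likelihood F-test, with Benjamini-Hochberg adjustment over all of them. Genes with both an adjusted p under 0.2 and a change of more than 2-fold were called, as in the study. PFOA within each genotype and the differences between genotypes were taken from 1 fit of the 6 groups. PFOA over the 3 genotypes and the genotype contrasts were taken from a fit of genotype plus exposure. Each SE is the absolute log2 fold change divided by the square root of F, and 95% intervals are 1.96 SE to each side. This normal multiplier is smaller than the F-test implies, so the intervals are somewhat too narrow. Vcan for KO minus WT, for example, had an interval of 0.04 to 1.55 with an unadjusted p of 0.0523 in the F-test. CPM are TMM-normalized.

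The members and the 18 gene lists were chosen with earlier results of these data known. All 9 members were named; from each other list, the 2 genes with the highest mean CPM could be named, and from the ligands, paralogs, inhibitory receptors and phosphatases any gene with a mean of at least 1 CPM. Genes at 0 in a library (Ncr1, Gzmb and Ngp) were named after their values were seen. Like genes were the 3 with the highest Pearson r of log2(CPM + 1) within the genes that averaged 1 CPM or more. Alternatives were DESeq2 1.42.0, other count filters and normalizations, sex, the i5 index or the protein-coding share as covariates, female libraries alone, both thresholds changed, sums with near paralogs, and each library left out. Replicate libraries of a group differed by a chi-square per degree of freedom of at least 6.28 and were each counted once; nothing beyond the animal numbers says how far they are independent, and p-values measure the spread between these mice. The fitting code was tested on simulated data. Depth was 4116116 to 9237385 counts per library, so that members with few counts, such as Lair1 and Plac8, carry more counting error. Matplotlib 3.10.9 drew the figures.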

Additional observations from a re-analysis of the deposited data

How the results depend on the processing

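Of 1918 values of single genes under the alternatives, 1844 kept their direction and their side of the threshold, 12 lost the call, 18 gained it and 44 changed sign. The causes were not tested. No paired analysis was possible because the replicate numbers are animal numbers that no groups share. Depth limits Plac8, Lair1 and Ly6c2 most.

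Signs turned in WT for Lair1 between females (-0.14), Gas7 with the protein-coding share (-0.11), between females (-0.042) and without libraries 122 and 137 (-0.19), and Sirpa with the protein-coding share (-0.058). WT females were 1 mouse on each exposure, and without library 122 WT had 1 mouse on vehicle. In KI they turned for Ly6c2 (i5 index 0.054, females 0.12, summed 0.54), Pirb (females 0.25, summed 0.011) and Sirpa (i5 index 0.070, females 0.20, summed 0.00074). Between genotypes they turned for Ly6c2 summed (-0.017) and Csf1r with the i5 index (-0.12) in KO, and between females for Gas7 (-0.10) and Sirpa (-0.029) in KI. With 1 library left out, log2 fold changes spanned in WT -0.19 to 0.40 for Gas7 and -0.15 to 0.60 for F13a1, in KO -0.029 to 0.40 for Vcan, and in KI -0.67 to 0.18 for Ly6c2, -0.099 to 0.55 for F13a1, -0.23 to 0.13 for Vcan, -0.28 to 0.15 for Pirb and -0.21 to 0.10 for Sirpa. Against WT they spanned -0.056 to 0.32 for F13a1 and -0.074 to 0.16 for Vcan in KO, and -0.098 to 0.12 for Vcan in KI.

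Among all genes, DESeq2 on the same genes and with its default filters called 24 and 74 for PFOA in WT, 68 and 72 in KO, 1 and 1 in KI, 26 and 22 over the 3 genotypes, 3 and 3 for KO minus WT, 1 and 1 for KI minus WT, 3 and 3 for KI minus KO, and 10 and 11 for KI against KO. The i5 index gave 1 in WT, 2 in KO, and 1 each for KO minus WT and KI minus KO. The protein-coding share gave 3 in KO, 1 for KI minus KO, 564 for KI against WT and 4 for KI against KO. Fitting only the groups compared gave 1 in KO and 1 for KI minus KO. Females alone gave 1 in KO, 27 over the 3 genotypes, 1 for KI minus KO, 217 for KO and 120 for KI against WT, and 1 for KI against KO. Without libraries 122 and 137 there was 1 in KO and 6 for KI against KO. At least 10 counts in every library gave 1 for KO minus WT and 137 and 94 for KO and KI against WT. No filter, and the robust fit, gave 1 each for KI minus KO, and protein-coding genes alone gave 241 for KI against WT. An adjusted p under 0.05 gave 258 and 179 for KO and KI against WT, and no fold limit gave 1 over the 3 genotypes and 1577 and 751 against WT.

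Of the 9 genes, DESeq2 called 0 or 1 in WT, 2 in KO and 1 over the 3 genotypes, and females alone gave 1 over the 3 genotypes. Against WT, KO calls were 1 with at least 10 counts, 0 with sex, the i5 index or females alone, 1 at 0.05 and 4 without a fold limit. KI calls were 0 with the i5 index, females alone or 0.05, and 2 without a fold limit. With at least 10 counts in every library KI calls were also 0. That filter removed Plac8 and Lair1, whose lowest counts were 5 and 9, so neither was tested under it. Leaving out a library gave, among all genes, 0 to 1672 calls in WT (1672 without WT vehicle 107), 0 to 8 in KO (8 without KI vehicle 116), 0 to 5 in KI (5 without KI PFOA 139), 0 to 35 over the 3 genotypes (35 without KI PFOA 139), 0 to 178 for KO minus WT and 0 to 350 for KI minus WT (both highest without WT vehicle 107), 0 to 7 for KI minus KO (7 without KI vehicle 116), 461 to 713 for KO and 282 to 541 for KI against WT, and 2 to 11 for KI against KO (11 without KI PFOA 139). It gave 0 to 2 of the 9 genes in WT, 0 to 1 over the 3 genotypes, and 1 to 2 in both KO and KI against WT.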
